A study of Mus musculus with 23 samples.

Results

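The genes of MHC class II antigen presentation were followed across single-cell RNA sequencing libraries from mouse spleen, lymph node (LN) and bone marrow (BM), in mice carrying WT Stat5b or a change of STAT5B tyrosine Y665, STAT5B being a transcription factor activated by cytokine receptors. The genes were chosen by symbol: H2-Aa, H2-Ab1, H2-Eb1, H2-DMa, H2-DMb1, H2-DMb2, H2-Oa, H2-Ob, Cd74 and Ciita, 10 of the 32285 genes in the files, and all 10 were detected in every tissue. The series holds 23 samples, of which 16 are expression libraries and 7 are T-cell receptor libraries of the LN. The mice were C57BL/6 at 2 months of age, and the methods name C57BL/6N as the stock in which the alleles were made. LN libraries came from WT (2 libraries), Y665F het (3 libraries) and Y665F homo (2 libraries) mice. Spleen gave 1 library each of WT, Y665H and Y665F, and BM gave 2 of each. The labels state zygosity for LN only. The edited alleles are germline knock-ins, so every cell of an edited mouse carries them, and UMI counts (counts of unique molecular identifiers, each 1 captured RNA molecule) do not read the edited base, so they cannot check the genotype labels. The study isolated CD45+ (white blood) cells from spleen and describes that experiment as a combined sample of several mice per genotype, although the same description calls the tissue lymph nodes, and no source ties LN or BM libraries to single animals, so p-values measure the spread between libraries, which may be technical.

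MHC class II molecules are surface heterodimers that show peptides from ingested proteins to CD4 T cells. They are made by B cells, dendritic cells and other antigen-presenting cells. The alpha and beta chains of I-A are encoded by H2-Aa and H2-Ab1, and the beta chain of I-E by H2-Eb1, whose alpha-chain partner is not expressed in C57BL/6 mice. Cd74, the invariant chain, occupies the groove of a new class II molecule and directs it to the endosome. There H2-DM (H2-DMa with H2-DMb1 or H2-DMb2) exchanges the remnant of Cd74 for peptide, and H2-DO (H2-Oa with H2-Ob) restrains H2-DM. Ciita is the coactivator that switches the whole set on, by docking on a complex of RFX, CREB and NF-Y factors bound to the X and Y boxes of class II promoters.

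On mm10 (GRCm38, GENCODE annotation of the reference), the 8 H2 genes lay within 224.3 kb of chromosome 17 (34092340 to 34316674), and Ciita on chromosome 16 (10480059 to 10528418). RefSeq promoters (250 bases before to 50 after a start site, GRCm38.p6) were found for 7 of the 10 genes. The table used held none for H2-Ab1, Cd74 and Ciita. The letters searched, on both strands, were CNAGNAAC for the X1 box that RFX binds, TGATTGG for the Y box that NF-Y binds, and TTCNNNGAA for the GAS element that STAT factors bind, and they were chosen after the sequences had been seen. An X1 box followed by a Y box, 20 to 40 bases apart, was found at 4 of the 7 genes and in 0.091% of 32851 promoters. The windows with the X1 box in capitals are shown because these genes carry the paired boxes, with the Y box 33 bases after the X1 box in H2-Eb1, 34 in H2-DMb1 and H2-Oa, and 31 in H2-Ob, without overlap:
H2-Eb1, chr17:34305769-34305798, plus strand: ctaaCTAGCAACtgatgatgctggactcct
H2-DMb1, chr17:34153090-34153119, plus strand: ttacCTAGTAACtgatgatgctaggctgat
H2-Oa, chr17:34092296-34092325, plus strand: ttgcCCAGCAACaaacccattatctcagag
H2-Ob, chr17:34238811-34238840, plus strand: ctgcCTAGCAACaaatgatgcaaagtcttc

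H2-Aa and H2-DMb2 had the Y box without an X1 box of these letters, and their windows are shown for that contrast, with the Y box in capitals:
H2-Aa, chr17:34287856-34287885, minus strand: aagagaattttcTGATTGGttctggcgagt
H2-DMb2, chr17:34145145-34145174, plus strand: taagtcacttagTGATTGGactgacttaac

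The Y box was present in 6 of the 7 genes against 7.82% of all promoters, and the X1 box in 4 against 13.8%. The GAS letters were present in H2-DMb2 alone among them, against 8.30% of all promoters. H2-DMb1 and H2-DMb2 share sequence: 31.4% of the 31-base words in H2-DMb1 transcripts also occur in H2-DMb2, so their counts are uncertain where reads could be split between them. For each other gene, at most 1.41% of the words occur in another gene.

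After removal of barcodes with fewer than 200 genes, of dying cells and of likely doublets, 39139 LN, 18819 spleen and 66473 BM cells were used. Total UMIs per library were 2621583 to 16101373 in LN, 36889328 to 47206322 in spleen and 16399123 to 55768078 in BM. LN het 3 and LN homo 1 were shallow, with medians of 368 and 395 UMIs per barcode. Of their barcodes 19.0% and 15.6% had fewer than 200 genes, against 0% in both LN WT libraries. The part of this loss in the shares of cell classes was not tested. Pairs of libraries of the same tissue shared at most 476 barcodes, and in no such pair more than 2.89% of the smaller library. In BM, replicate 1 of each genotype carried Xist (244 to 895 CPM) and replicate 2 carried Y-linked transcripts (64.3 to 109 CPM), although the methods give male mice, so sex goes with the replicate number and values are given within each sex. Levels are CPM, the UMIs of a gene scaled to the standard counts-per-million total of the cells summed, and they are compared within a tissue and within a gene only. A gene was called when the adjusted p of edgeR's quasi-likelihood test was under 0.05, over all genes tested.

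In the LN, the class II genes were lower in edited than in WT libraries when all cells were summed. H2-Aa was at 1978 and 1331 CPM in WT libraries, 836, 1067 and 809 CPM in het libraries and 682 and 715 CPM in homo libraries. H2-Ab1 was at 1355 and 786 CPM in WT, 568, 635 and 573 CPM in het and 423 and 526 CPM in homo. H2-Eb1 was at 1449 and 938 CPM in WT, 592, 749 and 619 CPM in het and 474 and 508 CPM in homo. For each of these chains, every het and every homo library lay below both WT libraries, and the WT libraries differed from each other more than the homo libraries did. The same held for all 10 class II genes, where 34.8% of the genes tested had both homo libraries below both WT libraries and 26% had all 3 het libraries there. Cd74 was at 9268 and 5879 CPM in WT, 3791, 4424 and 3417 CPM in het and 2862 and 3172 CPM in homo. The peptide exchange gene H2-DMa was at 235 and 152 CPM in WT, 105, 125 and 112 CPM in het and 99.2 and 96.0 CPM in homo. Its partner H2-DMb1 was at 51.3 and 26.4 CPM in WT, 17.4, 21.6 and 22.5 CPM in het and 13.2 and 21.2 CPM in homo. Again no edited library reached the lower WT library, and for H2-DMb1 the gap was narrow. H2-DMb2 was at 401 and 244 CPM in WT, 162, 189 and 151 CPM in het and 145 and 137 CPM in homo. H2-Oa was at 131 and 91.0 CPM in WT, 59.9, 75.2 and 78.5 CPM in het and 62.0 and 54.4 CPM in homo, and H2-Ob at 253 and 183 CPM, at 116, 143 and 108 CPM, and at 90.9 and 107 CPM. Ciita was at 135 and 82.7 CPM in WT, 43.6, 58.5 and 50.7 CPM in het and 36.8 and 42.8 CPM in homo. For the inhibitor H2-DO and the coactivator too every edited library lay below both WT libraries.

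In the test of homo against WT, 9 of the 10 genes fell, where 4.85% of 11387 genes were called and 2.32% were called lower. The median log2 fold change was -1.10 for the 10 genes and 0.0018 for all genes tested. Of the 9 called genes, 7 also fell by more than 1 on the log2 scale, as 1.48% of all genes did. Ciita fell the most, by 1.34 ± 0.24 on the log2 scale (SE, edgeR adjusted p = 0.0132), and Cd74 fell by 1.24 ± 0.23 (adjusted p = 0.0144). H2-Eb1 fell by 1.2 ± 0.20 (adjusted p = 0.0117) and H2-Aa by 1.16 ± 0.20 (adjusted p = 0.0127). The smallest called difference was that of H2-Oa, at -0.85 ± 0.19 (adjusted p = 0.0346), and H2-DMb1 was not called at -1.0 ± 0.33 (adjusted p = 0.119). With a replicate block none of the 10 genes was called. The calls also depended on the libraries used. They were lost without homo 1, without homo 2 and without both shallow libraries, and some were lost without WT 1. None was lost without WT 2. Each of these fits leaves 1 library in a group, so they cannot show whether the calls rest on any single library. At 500 or more genes per barcode, 2 genes were called. All 10 log2 fold changes stayed negative there and in the fits without homo 1, homo 2, WT 1 or both shallow libraries. In het against WT, where 1.62% of genes were called and 0.799% were called lower, Ciita fell by 1.02 ± 0.20 (edgeR adjusted p = 0.0400) and the other 9 genes were not called, with log2 fold changes of -0.89 to -0.58. This count depended on the analysis: 8 of the 10 were called without TMM and 8 with DESeq2, 10 without a filter on low counts, and 0 at 500 or more genes per barcode. None was called with a replicate block. Shares of all genes called in these alternative fits are not given, so the counts show only dependence on the analysis. All 10 were at an unadjusted p under 0.05, as were 14.5% of genes. Ciita was not called in het without WT 1, without any 1 of the het or homo libraries, or without both shallow libraries, and all 10 genes were called without WT 2. Between homo and het no gene of the whole table was called by edgeR (605 genes, or 5.31%, at an unadjusted p under 0.05, and 2 called by DESeq2), and log2 differences of the class II genes were -0.40 to -0.14.

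**Figure D1:**
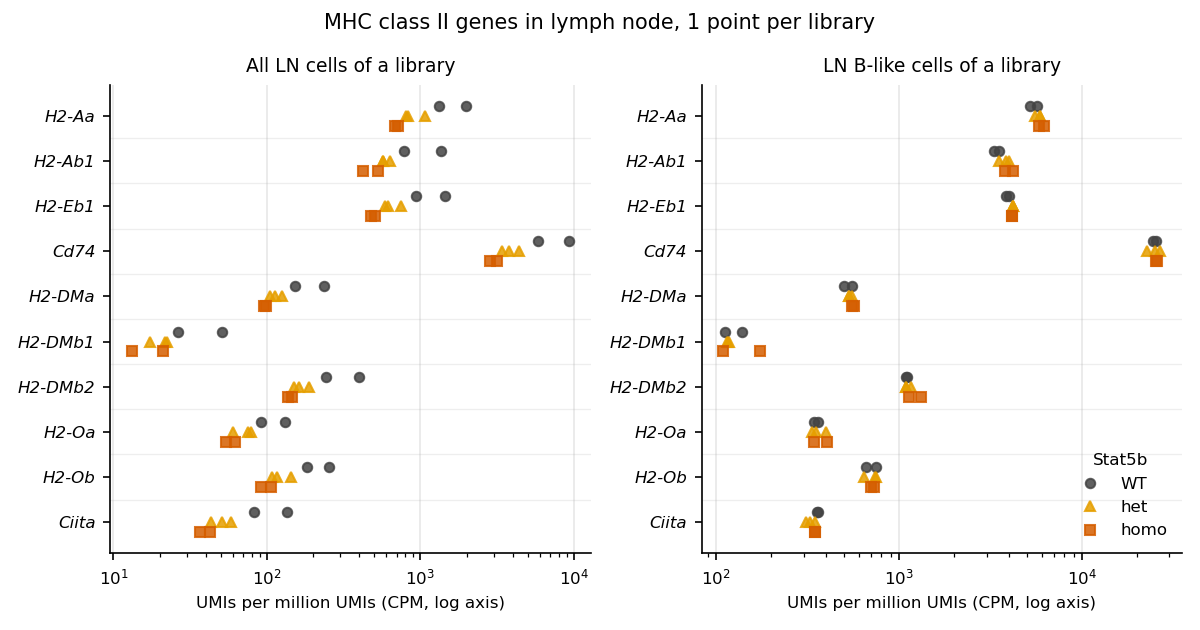
CPM of each of the 10 class II genes (log axis) in LN, 1 point per library, for all cells (left) and for B-like cells (right), with WT as circles, het as triangles and homo as squares. In all cells the WT points lie to the right of every edited point, as for Ciita at 135 and 82.7 CPM against at most 58.5 CPM, while in B-like cells the groups overlap or lie close together.

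Most class II UMIs of the LN lay in B-like cells, the clusters named from B cell markers such as Cd79a and Ms4a1. None of the 12 B cell markers was at 0 throughout in them, at a summed 11377 to 12505 CPM. The median share of a gene's LN UMIs in B-like cells was lowest for H2-DMa, at 66.4%, and highest for H2-DMb2, at 93.4%. B-like cells made up 42.9% and 26.3% of the WT libraries, 21.6%, 23.5% and 17.1% of the het libraries and 13.9% and 15.9% of the homo libraries, which gives 34.6% ± 11.8 (SD, n = 2) for WT, 20.8% ± 3.27 (SD, n = 3) for het and 14.9% ± 1.41 (SD, n = 2) for homo. The 10 genes together took 1.25% ± 0.39 of all UMIs in WT, 0.657% ± 0.081 in het and 0.513% ± 0.035 in homo. Both shares fell in the same order of groups, and no edited library reached the lower WT library in either. In sums over all cells, fewer B-like cells and less class II RNA per cell cannot be told apart, and the part of the B-like share in the whole-library result was not tested.

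Within B-like cells the class II genes did not follow that order. H2-Aa was at 5215 and 5683 CPM in WT, 5879, 5886 and 5501 CPM in het and 6150 and 5833 CPM in homo. H2-Ab1 was at 3523 and 3282 CPM in WT, 3982, 3495 and 3834 CPM in het and 3786 and 4204 CPM in homo. Cd74 was at 24515 and 25316 CPM in WT, 26690, 24891 and 22741 CPM in het and 25394 and 25646 CPM in homo. Both homo libraries lay above both WT libraries for 6 of the 10 genes and below them for 1, Ciita, as 19.3% and 19.4% of all genes tested did. Ciita was at 357 and 360 CPM in WT, 308, 326 and 348 CPM in het and 345 and 348 CPM in homo. H2-DMb1 ranged from 109 to 172 CPM, with both extremes in homo libraries. The 10 genes together took 4.02% and 4.14% of the UMIs of B-like cells in WT, 3.94% to 4.39% in het and 4.29% and 4.31% in homo.

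Of the 10 genes in B-like cells, 0 were called in any of the 3 contrasts, where 0% of 8834 genes were called by edgeR and 0 by DESeq2. At an unadjusted p under 0.05 were 6.29% of genes in homo against WT, 3.83% in het against WT and 4.88% in homo against het. The log2 fold changes of homo against WT were -0.05 to 0.27. The 95% intervals of this contrast were -0.16 to 0.41 for H2-Aa, -0.28 to 0.33 for Cd74 and -0.34 to 0.24 for Ciita. In het against WT they were -0.19 to 0.33 for H2-Aa, -0.29 to 0.26 for Cd74 and -0.40 to 0.08 for Ciita. Intervals of the other genes are not given. All of them reflect the spread between libraries, which may be technical, so they do not bound a difference between animals. The 12 T cell markers, which B cells should lack, summed to 204 CPM in the B-like cells of each WT library, to 89.8, 172 and 545 CPM for het libraries and to 478 and 223 CPM for homo libraries, highest in the 2 shallow libraries, and their part in these levels was not tested. The difference between the whole-library and the B-like changes was not tested either.

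**Figure D2:**
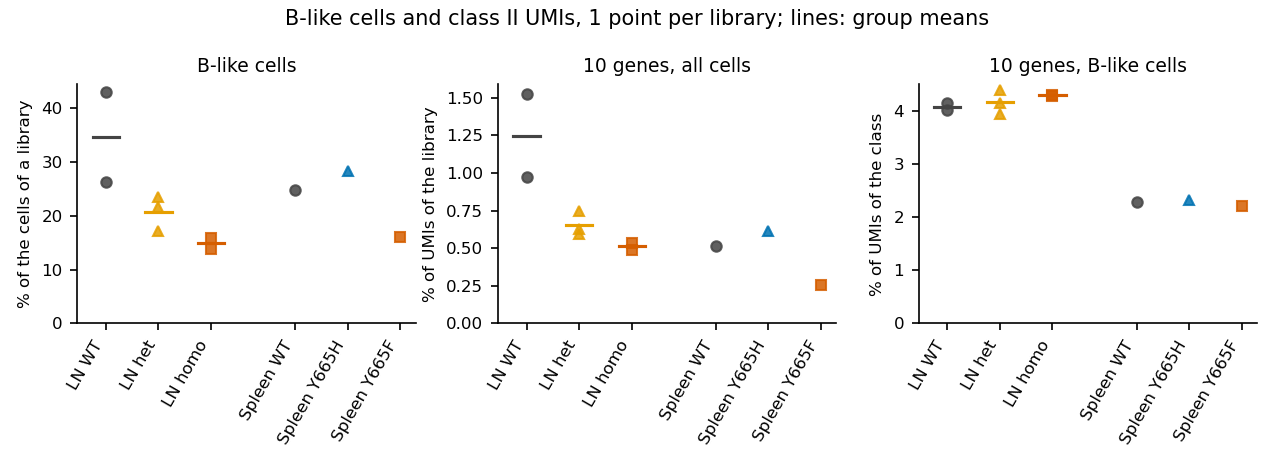
Percent of cells called B-like (left), percent of all UMIs (middle) and percent of the UMIs of B-like cells (right) that came from the 10 class II genes, 1 point per library with lines at LN group means. The left and middle panels run in the same order of genotypes in LN and spleen, while the right panel stays at 3.94% to 4.39% in LN and 2.21% to 2.33% in spleen.

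T-like cells, 52.8% to 85.6% of the cells of a library, held few class II UMIs, 0.0102% to 0.0552% of their total. Their levels for 7 of the genes were, in the median library, 0.20% to 0.42% of the B-like level. The other 3 stood apart: H2-DMa in T-like cells was at 7.75% of its B-like level, H2-Oa at 4.71% and H2-Ob at 2.90%. H2-DMa ranged from 32.3 to 50.7 CPM over the 7 T-like sums, H2-Oa from 14.5 to 27.5 CPM and H2-Ob from 16.6 to 26.9 CPM. Spleen T-like cells gave like values, 8.03%, 6.64% and 4.90% for these 3 genes against 0.51% to 1.27% for the others. In LN the lowest library for any of these 3 genes, at 2.26%, lay above the highest library for any of the other 7, at 1.77%. Cd74 in T-like cells varied more, from 27.1 to 299 CPM, and was highest in the shallow het 3 library. Of the 8 class II genes tested in T-like cells, all but H2-DMb1 and Ciita, 0 were called in homo against WT or in het against WT by edgeR, where 2.75% and 0.665% of 10527 genes were called, and H2-DMa alone was at an unadjusted p under 0.05 in each, as were 16.7% and 10.6% of genes.

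Dendritic cells were rare in the LN, with 2 to 19 conventional (cDC-like) and 2 to 15 plasmacytoid (pDC-like) cells per library, too few for a test. Pooled over libraries, Cd74 in cDC-like cells was at 20880 CPM in WT (exact 95% Poisson interval 19667 to 22148), 20049 CPM in het (18829 to 21328) and 19083 CPM in homo (15967 to 22631). H2-Aa was at 7797 CPM in WT (7063 to 8586), 6783 CPM in het (6081 to 7543) and 7373 CPM in homo (5490 to 9694). For Cd74 and H2-Aa these intervals overlap, and they cover counting error only. Over the 10 genes, 2 of 30 pairs of genotypes had intervals that did not overlap. H2-DMb2 was at 132 CPM in WT (7 UMIs, 53.1 to 272) and 867 CPM in homo (6 UMIs, 318 to 1888), and H2-Eb1 was at 5127 CPM in het (4519 to 5794) and 8096 CPM in homo (6116 to 10513). H2-DMb1 was at 302, 638 and 578 CPM in WT, het and homo, H2-Ab1 at 4720, 4369 and 5927 CPM, H2-DMa at 491, 499 and 723 CPM and Ciita at 340, 379 and 145 CPM, each with overlapping intervals. The homo values rest on 4 UMIs for H2-DMb1, 5 for H2-DMa and 1 for Ciita, which is below a floor of 3 counts. The class itself depended on the cell filters: the 10 genes took 4.08% of its UMIs in WT, 3.83% in het and 4.28% in homo, but 2.27%, 4.96% and 2.36% with doublets kept and 2.06%, 4.39% and 2.36% at 500 or more genes per barcode, from 2 to 17 cells per genotype. In pDC-like cells Cd74 was at 14949, 14172 and 12352 CPM and H2-Aa at 4097, 3603 and 2968 CPM in WT, het and homo, and 0 of 30 pairs had intervals apart. H2-Oa and H2-Ob had no UMI in the 8 homo cDC-like cells, where a floor of 3 counts is 434 CPM and the exact 95% Poisson upper limit is 533 CPM.

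In the spleen, with 1 library per genotype and so no test, the class II genes summed over all cells were higher in Y665H and lower in Y665F than in WT. H2-Aa was at 905 CPM for WT, 1023 CPM for Y665H and 458 CPM for Y665F. Cd74 was at 2359, 2888 and 1146 CPM, H2-DMa at 121, 133 and 72.3 CPM and Ciita at 74.0, 79.5 and 33.0 CPM in the same order. Each of the 10 genes had this order of libraries, and the share of all genes with it was not counted. Log2 ratios to WT were 0.10 to 0.57 in Y665H, with 0 of 10 past 1 in size against 9.32% of 16146 genes, and -1.17 to -0.75 in Y665F, with 3 of 10 past 1 (Ciita, Cd74 and H2-Ab1) against 12.6% of 15790 genes, or 6.47% in the lower direction. The median ratio in Y665F was -0.98 for the 10 genes and -0.18 for all genes. B-like cells made up 24.7% of the WT library, 28.2% of Y665H and 16% of Y665F, the same order as the class II levels, and its part in them was not tested.

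Within spleen B-like cells the genotypes were close. H2-Aa was at 4038 CPM for WT, 3872 CPM for Y665H and 4015 CPM for Y665F, and Cd74 at 10865, 11301 and 10193 CPM. Ciita was at 327, 303 and 289 CPM. Log2 ratios were -0.13 to 0.13 in Y665H and -0.22 to 0.02 in Y665F, with 0 of 10 past 1 in either, against 4.41% and 4.94% of all genes. In Y665F the counting intervals of Ciita (-0.29 to -0.07) and Cd74 (-0.11 to -0.07) lay below 0, and those of the other 8 genes included it. In Y665H the intervals of H2-Aa, H2-DMa and Ciita lay below 0, those of H2-Ab1, Cd74 and H2-DMb2 lay above it, and those of the other 4 genes included it. Those intervals cover counting error and not the spread between mice.

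Spleen cDC-like cells (66 in WT, 120 in Y665H and 39 in Y665F) used a different balance of H2-DM beta chains from B-like cells in every library, within the uncertainty of reads that the paralogs share. H2-DMb1 was at 368, 469 and 460 CPM in cDC-like cells of WT, Y665H and Y665F, against 75.2, 82.1 and 64.5 CPM in B-like cells. H2-DMb2 was at 201, 195 and 162 CPM in cDC-like cells against 467, 491 and 455 CPM in B-like cells. H2-DMb1 was thus higher and H2-DMb2 lower in cDC-like than in B-like cells in all 3 libraries. Ciita was at 698, 529 and 496 CPM in cDC-like cells, above its B-like level in each library. These levels depended on how the cells were chosen. With a marker gate per cell in place of clusters, the 10 genes took 2.53%, 2.04% and 1.73% of cDC-like UMIs in WT, Y665H and Y665F, against 3.91%, 3.48% and 3.4%. H2-DMb1 was still above its B-like level and H2-DMb2 below it in each library, but Ciita, at 365, 251 and 240 CPM, lay above its B-like level for WT and below it for Y665H and Y665F. Between genotypes, log2 ratios were -0.40 to 0.35 in Y665H, with 0 of 10 past 1 against 9.33% of 9144 genes. In Y665F they were -1.13 to 0.32, with 1 of 10 past 1 against 16.4% of 7624 genes, or 9.61% in the lower direction. That gene was H2-Ob, at 210 CPM (132 UMIs) for WT, 163 CPM for Y665H and 95.9 CPM (29 UMIs) for Y665F. The summed B-like markers in the same cells were at 268, 192 and 66.2 CPM in that order, with none of the 12 at 0 throughout. Monocyte and macrophage markers, none of 12 at 0 throughout, summed to 856, 1291 and 1141 CPM in these cells, pDC markers, 2 of 10 at 0, to 335, 528 and 185 CPM, and T cell markers, 1 of 12 at 0, to 400, 262 and 318 CPM. The part of these markers in the class II values was not tested. Cd74 in these cells was at 15644, 14340 and 13618 CPM, a log2 ratio of -0.20 in Y665F. The marker gate put that ratio at -0.61, and the ratios of H2-DMa and H2-DMb1 in Y665F, 0.17 and 0.32, at -0.09 and -0.27. In pDC-like cells, only 11, 12 and 3 per library, 1 gene in Y665H and 2 in Y665F were past 1, against 16.6% and 25.9% of genes. H2-Oa was at 230 CPM (25 UMIs) in WT and 76.4 CPM (8 UMIs) in Y665H, a log2 ratio of -1.59 that was -0.50 with doublets kept, where no gene in Y665H was past 1.

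**Figure D3:**
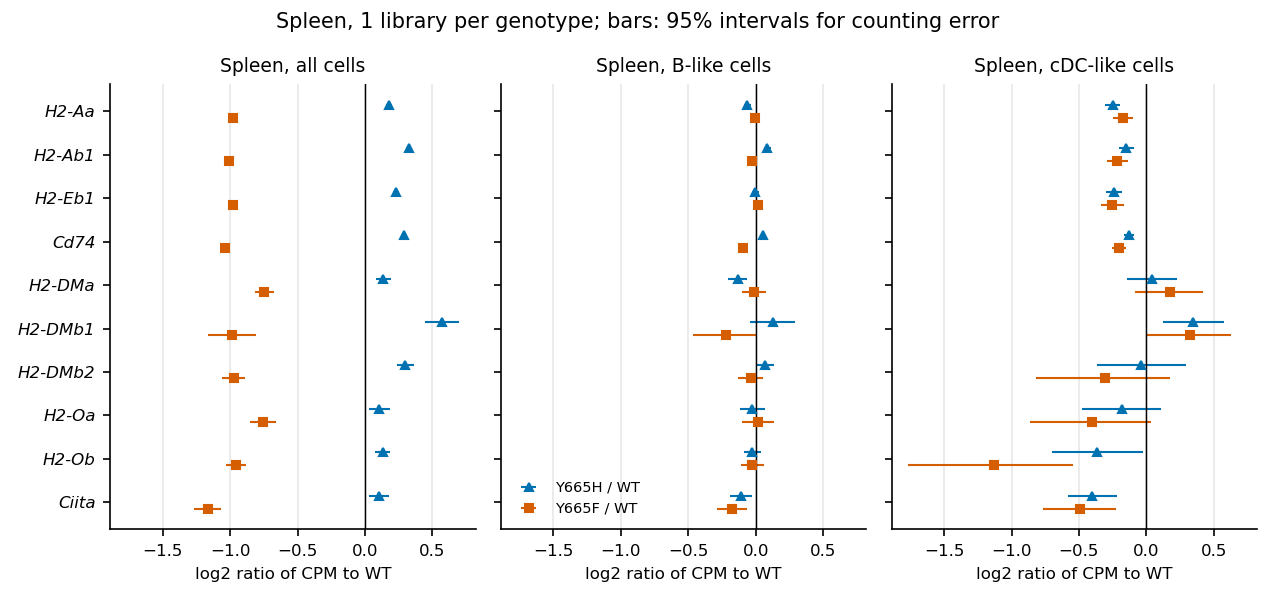
Log2 ratio of CPM to WT for each class II gene in spleen, for all cells, B-like cells and cDC-like cells, with Y665H as triangles and Y665F as squares and bars for 95% counting intervals. In all cells the Y665F points lie between -1.17 and -0.75 and the Y665H points between 0.10 and 0.57, while in B-like cells all lie between -0.22 and 0.13.

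In these BM libraries, class II genes were scarce, and most of them were lower for Y665F. No class of mature B cells was named there, and most cells lay in stem, progenitor, erythroid or unnamed classes. The 10 genes took 0.0630% ± 0.0071 of UMIs in WT, 0.0437% ± 0.0088 in Y665H and 0.0277% ± 0.0029 in Y665F (SD, n = 2 each). Cd74 was at 292 and 352 CPM for WT, 253 and 169 CPM for Y665H and 97.5 and 66.9 CPM for Y665F. H2-Aa was at 57.1 and 83.7 CPM for WT, 57.7 and 45.0 CPM for Y665H and 26.5 and 27.8 CPM for Y665F. H2-DMb1 was at 30.8 and 35.1 CPM for WT, 28.4 and 21.0 CPM for Y665H and 14.1 and 9.63 CPM for Y665F. For these genes both Y665F libraries lay below all others, and the share of all genes with this order was not counted. H2-DMa did not share the pattern, at 83.7 and 72.1 CPM for WT, 62.2 and 51.9 CPM for Y665H and 86.0 and 79.8 CPM for Y665F. Ciita was near the limit of detection, at 1.61 and 1.34 CPM for WT, 0.808 and 0.784 CPM for Y665H and 1.75 and 1.94 CPM for Y665F, from 18 to 80 UMIs per library.

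In Y665F against WT, 8 of the 10 genes fell, where 30.1% of 13747 genes were called and 15.8% were called lower. The median log2 fold change was -1.07 for the 10 genes and 0.03 for all. Cd74 fell by 2.14 ± 0.30 on the log2 scale (SE, edgeR adjusted p = 3.31e-04), H2-DMb1 by 1.64 ± 0.26 (adjusted p = 5.25e-04) and H2-Aa by 1.56 ± 0.26 (adjusted p = 7.7e-04). H2-Ob fell by 1.17 ± 0.25, H2-DMb2 by 1.16 ± 0.35, H2-Eb1 by 0.99 ± 0.25, H2-Ab1 by 0.95 ± 0.21 and H2-Oa by 0.81 ± 0.28, with adjusted p of 0.00334 to 0.0378. The H2-DMb2 call rests on 34 to 77 UMIs per library. H2-DMa was at -0.06 ± 0.20 (adjusted p = 0.858) and Ciita at 0.18 ± 0.35 (adjusted p = 0.721). Scaling by total UMIs alone shifted the class II values by a median of 0.17, which left 6 of the 8 called and put H2-DMa at 0.09, on the other side of 0. Within the female pair of libraries the log2 ratio of Y665F to WT was -1.58 for Cd74, -1.13 for H2-DMb1 and -1.11 for H2-Aa, and within the male pair it was -2.40, -1.87 and -1.59. H2-Oa was at -0.14 in the female and -1.14 in the male pair. Without WT 2, 5 genes were called (H2-Aa, H2-Ab1, Cd74, H2-DMb1 and H2-Ob).

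In Y665H against WT, no class II gene and no gene of the table was called by edgeR (0%), with 717 genes (5.22%) and none of the 10 at an unadjusted p under 0.05, and 4 genes called by DESeq2. Log2 fold changes of the 10 genes were -0.62 to -0.04. Within the female pair H2-Aa was at 57.7 CPM for Y665H and 57.1 CPM for WT, and Cd74 at 253 and 292 CPM. Within the male pair H2-Aa was at 45.0 CPM for Y665H and 83.7 CPM for WT, and Cd74 at 169 and 352 CPM. In Y665F against Y665H, 6 of 10 genes fell, where 44% of genes were called and 21.7% were called lower: Cd74 by 1.76 ± 0.30, H2-DMb1 by 1.46 ± 0.26, H2-Aa by 1.33 ± 0.26, H2-Ob by 0.92 ± 0.25, H2-DMb2 by 0.91 ± 0.35 and H2-Ab1 by 0.91 ± 0.21 (edgeR adjusted p of 4.52e-04 to 0.0443). With scaling by total UMIs, which shifted the class II values of this contrast by a median of 0.41, 3 of the 10 genes were called lower and 2, H2-DMa and Ciita, higher. The share of all genes called under that scaling is not given.

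A small DC-like class held a median 70.3% of the Cd74 UMIs and 71.3% of the H2-Aa UMIs of BM, against 4.77% for H2-DMa. For Cd74 the share was 82.1% and 75.3% for WT, 78.8% and 65.3% for Y665H and 62.3% and 50.7% for Y665F. For H2-Aa it was 81.3% and 76.9%, 80.7% and 65.8%, and 58.9% and 49.0%. HSC/MPP-like cells held 22.9% and 16.2% of the Cd74 UMIs for Y665F, against 2.30% to 5.13% in the other libraries. They made up 23.9% ± 22.8 of cells for WT, 5.14% ± 2.35 for Y665H and 40.3% ± 12 for Y665F (SD, n = 2 each). The part of the HSC/MPP-like share in the whole-library result was not tested. The DC-like class held 2.14% ± 0.27 of cells in WT, 1.92% ± 0.32 in Y665H and 1.06% ± 0.54 in Y665F (SD, n = 2 each), and the part of this share in the whole-library result was not tested. The 14 dendritic markers summed to 748 to 1092 CPM in it, with 1 of them at 0 in every library, against 68.7 to 408 CPM in the HSC/MPP-like, GMP-like and B-lineage-like classes. Cd74 in DC-like cells was at 19292 and 17915 CPM for WT, 18701 and 10939 CPM for Y665H and 10050 and 2345 CPM for Y665F. H2-DMb1 was at 781 and 740 CPM for WT, 896 and 606 CPM for Y665H and 305 and 92.4 CPM for Y665F. H2-Ab1 overlapped between the genotypes, at 1494 and 1145 CPM for WT, 1098 and 939 CPM for Y665H and 1452 and 802 CPM for Y665F. Both Y665F libraries were lowest for Cd74 and H2-DMb1, and Y665F 2 was far below Y665F 1. The share of all genes lowest in both Y665F libraries of this class was not counted.

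In DC-like cells 2 of the 10 genes fell in Y665F against WT, where 3.53% of 4673 genes were called and 2.16% were called lower. H2-DMb1 fell by 1.90 ± 0.39 (edgeR adjusted p = 0.0031) and Cd74 by 1.48 ± 0.37 (adjusted p = 0.0162). H2-Aa was at -1.11 ± 0.35 (adjusted p = 0.0560), and the other 7 genes lay between -1.10 for H2-Oa and 0.67 for Ciita. Without Y665F 2, none was called, without WT 1 or without Y665F 1 there were 4 calls, and DESeq2 called none of the 10. The class was made of different clusters in different libraries. One cluster, led by Aif1 and Plbd1, held 57.5% and 95% of the WT cells, 94.1% and 98.4% of the Y665H cells and 67.9% of Y665F 1, but 1.74% (4 cells) of Y665F 2, and the other, led by Batf3 and Id2, held the rest. Inside the first cluster Cd74 was at 22251 and 18125 CPM for WT, 18972 and 11061 CPM for Y665H and 11851 CPM for Y665F 1, and H2-DMb1 at 865 and 745 CPM, 893 and 614 CPM, and 327 CPM. There Y665F 1 lay below both WT libraries for Cd74 and H2-DMb1, and its Cd74 lay above Y665H 2. It also lay below both WT libraries for H2-Aa, at 3086 CPM against 4309 and 4392 CPM. For H2-Ab1 it lay between them, at 1691 CPM against 1737 and 1148 CPM. The same held for H2-Eb1, at 1144 CPM against 1273 and 1039 CPM. In the second cluster, of 3 to 34 cells per library apart from the 226 of Y665F 2, Cd74 was at 5411 and 9630 CPM for WT, 6794 and 1664 CPM for Y665H and 5629 and 2294 CPM for Y665F, and H2-DMb1 at 382 and 553 CPM, at 1019 and 0 CPM, and at 251 and 93.6 CPM. There Cd74 of Y665F 1 lay above that of WT 1, while H2-DMb1 of both Y665F libraries lay below both WT libraries. H2-Aa was at 1029 and 2325 CPM for WT and 1354 and 920 CPM for Y665F in this cluster. H2-Ab1 was at 353 and 996 CPM for WT and 865 and 780 CPM for Y665F. H2-Eb1 was at 324 and 443 CPM for WT and 514 and 404 CPM for Y665F. Markers of stem and progenitor cells in DC-like cells were at 67.2 and 98.3 CPM for WT, 80.7 and 82.2 CPM for Y665H and 178 and 382 CPM for Y665F, and neutrophil markers at 15.5 and 21.9, at 53.0 and 4.33, and at 211 and 166 CPM. The 12 monocyte and macrophage markers, 4 of them at 0 in every library, summed to 1556 and 1188 CPM for WT, 1297 and 1051 CPM for Y665H and 1074 and 781 CPM for Y665F. The 7 GMP markers, none at 0 throughout, summed to 770 and 658 CPM for WT, 901 and 766 CPM for Y665H and 933 and 1435 CPM for Y665F. The part of these markers in the class II values was not tested. In Y665H against WT, 0 of 10 genes and 0% of genes were called by edgeR in DC-like cells (156 genes, or 3.34%, at an unadjusted p under 0.05, none of the 10 among them).

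**Figure D4:**
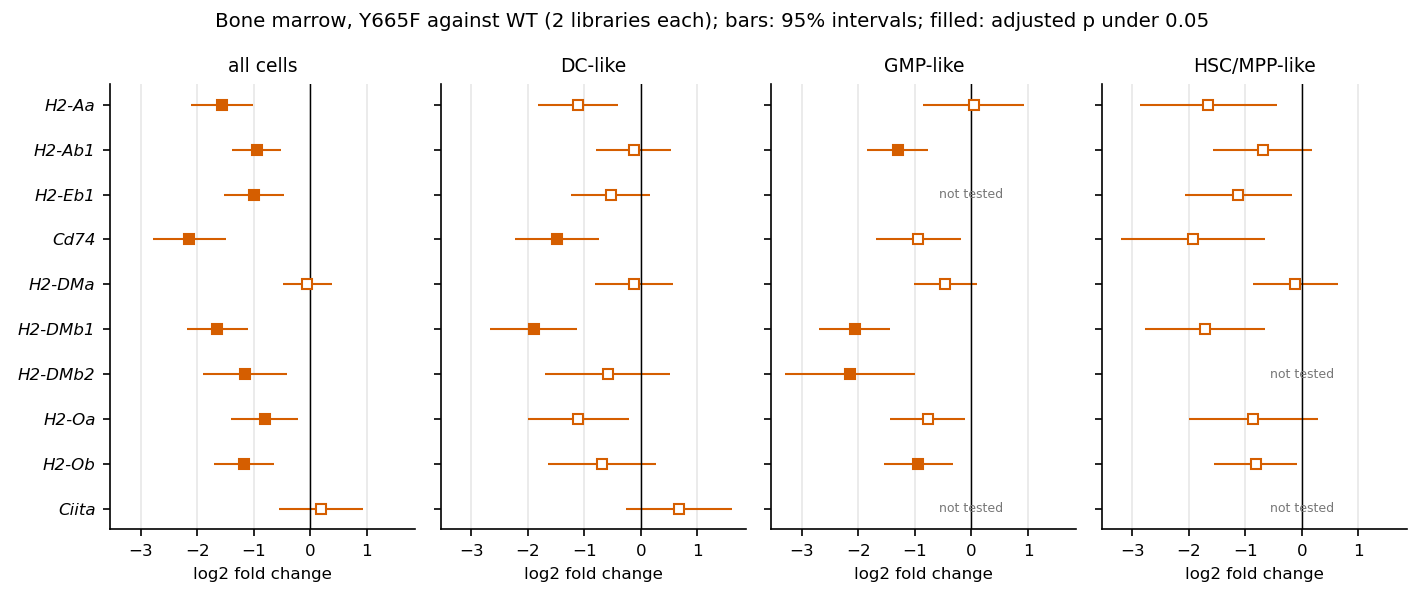
Log2 fold change of Y665F against WT in BM for each class II gene with 95% intervals, for all cells and for the DC-like, GMP-like and HSC/MPP-like classes. Filled squares mark an adjusted p under 0.05, which 8, 2, 4 and 0 genes reached. Cd74 and H2-DMb1 lie to the left of 0 in every panel, at -2.14 and -1.64 in all cells, where H2-DMa lies at -0.06.

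Outside the DC-like class the BM levels were low. With DC-like cells left out, the whole-library test of Y665F against WT called 6 of 10 genes lower, where 30.3% of genes were called and 15.9% were called lower. H2-DMb1 fell by 1.32 ± 0.26 (edgeR adjusted p = 0.0021), Cd74 by 1.2 ± 0.28 (adjusted p = 0.0051) and H2-Ob by 1.18 ± 0.25 (adjusted p = 0.0029), while H2-Aa was at -0.49 ± 0.32 and H2-Eb1 at -0.18 ± 0.28, neither called. Cells in unnamed clusters held 48.7% and 69.5% of the H2-Ob UMIs for WT, 66.2% and 67.2% for Y665H and 5.89% and 42.2% for Y665F. These clusters held 1082 of 4093 and 5161 of 10296 cells for WT, 4257 of 9561 and 5490 of 10957 for Y665H, and 1255 of 15656 and 6681 of 15910 for Y665F, and the part of their share in the H2-Ob values was not tested. In GMP-like cells (granulocyte-monocyte progenitors, by markers) H2-DMb1 was at 64.8 and 47.8 CPM for WT, 47.6 and 27.0 CPM for Y665H and 18.9 and 9.32 CPM for Y665F. Of the 8 genes tested there, 4 fell in Y665F against WT, where 27.8% of genes were called and 15.5% were called lower: H2-DMb2 by 2.15 ± 0.55 (edgeR adjusted p = 0.0071), H2-DMb1 by 2.07 ± 0.30 (adjusted p = 0.00011), H2-Ab1 by 1.30 ± 0.26 (adjusted p = 0.0012) and H2-Ob by 0.94 ± 0.30 (adjusted p = 0.0215). The H2-DMb2 value rests on 16 and 16 UMIs for WT, 25 and 5 for Y665H and 11 and 5 for Y665F. Cd74 was at -0.94 ± 0.36, H2-Oa at -0.77 ± 0.32, H2-DMa at -0.46 ± 0.27 and H2-Aa at 0.04 ± 0.43, none of them called, and H2-Eb1 and Ciita were too low to be tested. The 10 neutrophil markers in GMP-like cells, 1 of them at 0 in every library, summed to 41.8 and 16.5 CPM for WT, 58.4 and 22.5 CPM for Y665H and 242 and 143 CPM for Y665F. The 12 monocyte and macrophage markers, none at 0 throughout, summed to 1399 and 1056 CPM for WT, 1227 and 1018 CPM for Y665H and 851 and 867 CPM for Y665F, and the part of these markers in the class II values was not tested. At least 88.0% of WT and Y665H GMP-like cells lay in one cluster and at least 97.6% of Y665F cells in another, so cluster and genotype cannot be told apart there. In HSC/MPP-like cells (stem and multipotent progenitors, by markers) Cd74 was at 93.2 and 279 CPM for WT, 186 and 165 CPM for Y665H and 59.5 and 35.3 CPM for Y665F. Of the 8 genes tested, 0 were called by edgeR, as were 0% of 10350 genes, with 954 genes (9.22%) and 5 of the 8 at an unadjusted p under 0.05, and 6 were called without WT 1. Log2 fold changes of the 8 ran from -1.92 for Cd74 to -0.12 for H2-DMa, and H2-DMb2 and Ciita were not tested. Most of this class lay in 1 cluster in WT 2 and both Y665H libraries, and in a different cluster in each of WT 1, Y665F 1 and Y665F 2. The cluster with 84.4% of the WT 1 cells was led by Gm43305 and Gm4258. The 12 stem and progenitor markers of this class, none at 0 throughout, summed to 772 to 974 CPM over the libraries. The 7 GMP markers, none at 0 throughout, summed to 1320 to 2512 CPM in the same cells. The part of clusters and markers in these class II values was not tested. The B-lineage-like class had few class II UMIs, 125 to 426 per library, and 0 of the 6 genes tested were called in Y665F against WT, where 0.507% of 7688 genes were called, with H2-Ab1 and Cd74 at an unadjusted p under 0.05, as were 17.7% of genes. With a replicate block, 1 gene was called. Log2 fold changes of the 6 ran from -1.28 for Cd74 to -0.08 for H2-DMa, and H2-Eb1, H2-DMb1, H2-DMb2 and Ciita were not tested. One of the 2 clusters of this class held 79.7% and 24.3% of its cells for WT, 47.6% and 10.3% for Y665H and 89.6% and 97.7% for Y665F. Its 10 pre-B and pro-B markers, none at 0 throughout, summed to 12817 and 8955 CPM for WT, 10554 and 7355 CPM for Y665H and 11846 and 4128 CPM for Y665F, and the part of either in the class II values was not tested. H2-Ab1 was called there without WT 1.

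**Figure D5:**
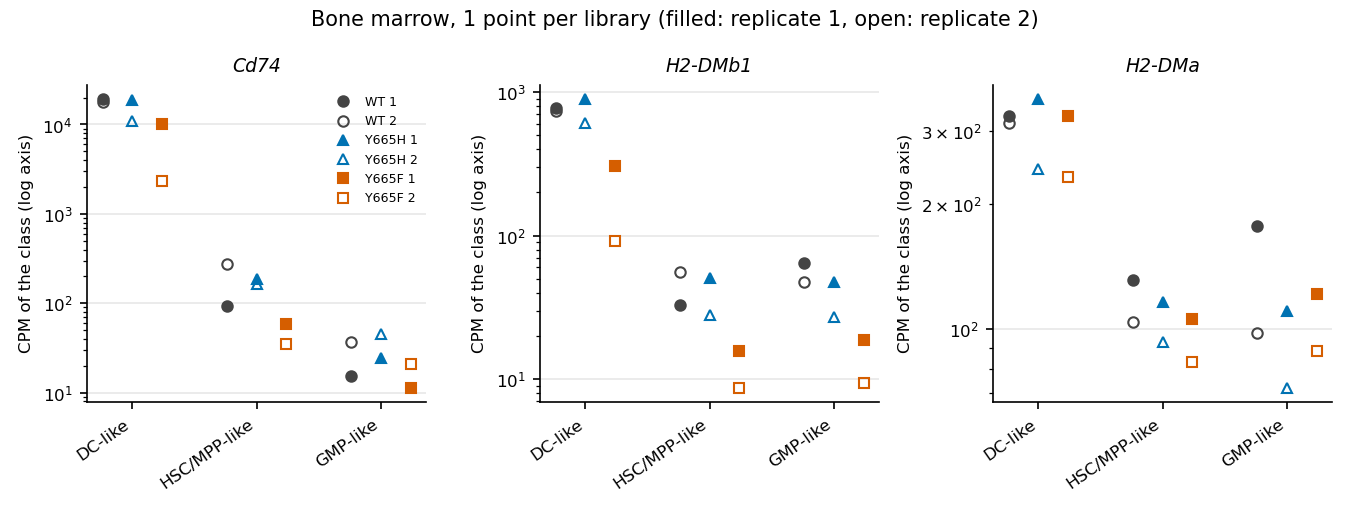
CPM (log axes) of Cd74, H2-DMb1 and H2-DMa in 3 BM classes, 1 point per library, filled for replicate 1 (female) and open for replicate 2 (male). For H2-DMb1 both Y665F squares lie lowest in each class, at 92.4 to 305 CPM in DC-like cells, while for H2-DMa the genotypes overlap in each class. The share of all genes with the order of H2-DMb1 was not counted.

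Other genes of the pathway were read from lists. In LN homo against WT over all cells, of 10 factors that act on Ciita or on class II genes 6 fell and 0 rose, with a median of -1.03 on the log2 scale against 0.0018 for all genes, where 2.32% of all genes were called lower and 2.53% higher. These counts come from the fit whose class II calls were lost without homo 1 and without homo 2. Irf8, a factor of B cells and dendritic cells, fell by 1.41 ± 0.18 (edgeR adjusted p = 0.00372), the B cell factors Ebf1 and Pax5 fell by 1.65 ± 0.34 and 1.27 ± 0.22, and Spi1 (PU.1), Bcl6 and Irf4 fell by 1.2 ± 0.21, 1.28 ± 0.19 and 0.85 ± 0.21, with adjusted p of 0.00712 to 0.0499. Of 7 peptide loading genes the thiol reductase Ifi30 fell by 0.94 ± 0.20 and the Cd74-cleaving protease Ctss by 0.65 ± 0.13, and the protease Ctsd rose by 0.77 ± 0.11. Of 4 turnover and costimulation genes tested, Cd83, which keeps class II at the surface, fell by 1.52 ± 0.23, and March1, the ligase that removes it, fell by 1.19 ± 0.20. Of 6 other genes of the class II locus H2-Eb2 fell by 1.65 ± 0.34, while 0 of 7 enhanceosome genes (the RFX, NF-Y and CREB factors) and 0 of 5 class I presentation genes were called. In het against WT, Bcl6, Irf8, Cd83 and March1 fell and Ctsd rose, by 0.52 ± 0.10, where 1.62% of genes were called. In LN B-like cells no gene of the 6 lists was called in homo or het against WT, where 0% of all genes were called. In LN T-like cells Bcl6 fell by 1.30 ± 0.24 and Ctsd rose by 0.48 ± 0.10 in homo against WT (edgeR adjusted p = 0.0107 and 0.0289), where 2.75% of genes were called.

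In BM, the enhanceosome genes moved in both directions in Y665F against WT: of 7, Nfya rose by 1.35 ± 0.25 and Rfx5 by 0.95 ± 0.26, and Nfyb fell by 0.81 ± 0.23 and Nfyc by 0.75 ± 0.21 (edgeR adjusted p of 0.00151 to 0.0152), where 14.3% of all genes were called higher and 15.8% lower. Nfya was at 32.6 and 27.7 CPM for WT, 19.7 and 30.1 CPM for Y665H and 69 and 101 CPM for Y665F. In DC-like cells, 4 enhanceosome genes were tested, with a median of -0.56 on the log2 scale, and Nfya alone was called. There Nfya rose by 1.84 ± 0.47 (edgeR adjusted p = 0.0185), from 31 and 19.1 CPM for WT to 65.3 and 92.4 CPM for Y665F, where 1.37% of 4673 genes were called higher. Zbtb46, a factor of conventional dendritic cells, fell by 1.56 ± 0.30 over all BM cells, from 8.10 and 4.94 CPM for WT to 2.08 and 2.72 CPM for Y665F. Most of its level lay outside the DC-like class. With DC-like cells left out it fell by 1.58 ± 0.31 (edgeR adjusted p = 0.0019), where 15.9% of genes were called lower. The levels there were 7.29 and 4.52 CPM for WT and 1.94 and 2.35 CPM for Y665F. Over all BM cells Zbtb46 alone was called among the 10 factors that act on Ciita or on class II genes, whose median log2 fold change was 0.18. Cd83 fell by 1.67 ± 0.59, from only 6 to 16 UMIs per library, and Nlrc5, the class I counterpart of Ciita, rose by 0.67 ± 0.24. None of the peptide loading genes was called over all BM cells in this contrast. In GMP-like cells, where 12.3% of genes were called higher and 15.5% lower, the proteases Ctss and Ctsb fell by 0.86 ± 0.26 and 0.84 ± 0.25, and of the 7 enhanceosome genes Rfxap, Nfya and Creb1 rose by 1.38 ± 0.36, 1.09 ± 0.25 and 0.82 ± 0.23 and Nfyb fell by 0.90 ± 0.24 (edgeR adjusted p of 0.0033 to 0.0185).

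By pattern over class sums within a tissue, the genes most like the 10 together included Ly86, Ctsh, Fcer2a and Iglc3 in LN (Pearson's r across 22 sums of 4 classes, 0.991 to 0.993), Kynu, Trim7, Kmo, Carmil1 and Pkib in spleen (22 sums of 8 classes, 0.942 to 0.961) and Nccrp1, Cd83, Phf11a, Tmsb10 and Prss30 in BM (56 sums of 10 classes, 0.873 to 0.886). These sums share libraries and depth, and the values describe likeness of level only.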

How the data were processed

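Per the labels, single cells were captured on a 10x Genomics controller. The authors aligned and counted reads with Cell Ranger (file headers 5.0.0 for LN, 6.0.0 for spleen and BM) on mm10 and deposited raw UMI counts per gene and barcode. The labels and the methods name different kits (3′ and 5′), so counts lean to 1 transcript end that is unsure. Productive contigs in the T-cell receptor tables, whose deposited UMI counts were not otherwise used, served to leave out barcodes in 1 alternative.

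Barcodes with 200 genes or more and at most 10% mitochondrial UMIs were kept, and likely doublets were removed by their share of simulated doublets among 20 neighbours. Cells were clustered per tissue (2000 variable genes, 30 components, Leiden resolution 1.0), and clusters were named "X-like" from marker lists, some naming rules and a second clustering of BM being set after clusters were seen. A class entered a test with 10 cells or more per library. For each library and class the counts were added up, then compared by edgeR 4.0.16 (TMM, filterByExpr, all genotypes of a tissue in 1 model, Benjamini-Hochberg over all genes). SE and 95% intervals are from that fit. The test was checked on simulated data. Spleen levels have exact Poisson intervals and a floor of 3 counts, which cover counting error only. DESeq2 1.42.0 was an alternative. In BM the replicate number goes with sex, but not every same-numbered pair deviated together (correlations -0.03 to 0.41, and -0.28 to 0.05 in LN), so a replicate block was an alternative.

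The class II genes and the pathway lists were chosen with earlier results of these data known. All 10 genes are counted in every test, with those below the filter named as not tested, and values are given for part of them in the rarer classes; other genes come from the lists or from the 5 most alike in each tissue, of which 1 is not reported here.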

Additional observations from a re-analysis of the deposited data

Results flagged for a closer look

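Changes from WT of whole libraries that went opposite ways in 2 tissues, in every library, are given here as differences of log2 ratios to the mean of WT, scaled by total UMIs; none of these differences was tested, and spleen has 1 library per genotype. H2-DMa and Ciita were lower than the WT mean in both LN homo libraries and higher in both BM Y665F libraries, by differences of -1.07 and -1.78 (LN minus BM). For H2-DMa the BM direction depends on the scaling, at 0.09 by total UMIs and -0.06 with TMM (edgeR adjusted p = 0.858), and Y665F 2, at 79.8 CPM, lay below WT 1, at 83.7 CPM. Against the spleen Y665F library, BM Y665F was higher by 0.834 for H2-DMa and 1.49 for Ciita. The BM values of Ciita rest on 25 to 80 UMIs per WT or Y665F library. All 10 genes were lower than the WT mean in both BM Y665H libraries and higher in the spleen Y665H library. The share of all genes with such opposite directions was not counted, for this pair of tissues or for those above. Scaling by total UMIs put the BM Y665H values lower than TMM did, by a median of 0.24 on the log2 scale, and H2-Aa of the female pair was at 57.7 CPM for Y665H and 57.1 CPM for WT. The differences, BM minus spleen, were -0.644 for H2-Aa, -0.613 for H2-Ab1, -0.882 for H2-Eb1, -0.932 for Cd74, -0.592 for H2-DMa, -1.004 for H2-DMb1, -0.762 for H2-DMb2, -0.753 for H2-Oa, -0.614 for H2-Ob and -0.989 for Ciita. In the BM Y665H libraries themselves none of the 10 genes was called by edgeR.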

How the results depend on the processing

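Of 2016 alternative values for single class II genes in LN and BM, 1798 kept their direction and side of the threshold, 83 lost a call, 86 gained one, 49 moved without a call and 0 reversed a called direction. Except where stated, shares of all genes called in the alternative fits are not given, so the counts of calls describe dependence on the processing only. In LN whole libraries, homo against WT had 9 calls, and 0 with a replicate block, 2 at 500 or more genes per barcode, 0 without both shallow libraries (chosen after seeing the data) and 0 to 10 over the fits without 1 library. Het against WT had 1 call, and 8 without TMM, 10 without a filter, 0 with a replicate block, 8 with DESeq2, 0 at 500 genes, 0 without both shallow libraries and 0 to 10 without 1 library. At 500 genes the B-like share was 16% in het and 8.22% in homo, and the class II share of UMIs in homo 0.371%. In BM, Y665F against WT gave 5 to 8 calls without 1 library (main 8), and Y665F against Y665H 5 to 7 (main 6). In DC-like cells (main 2) there were 0 calls with DESeq2, 4 with doublets kept and 0 to 4 without 1 library. In B-lineage-like cells (main 0) there was 1 with a replicate block, 1 with doublets kept and 0 to 1 without 1 library. In HSC/MPP-like cells (main 0 in each contrast) Y665F against WT gave 3 without a filter, 1 at resolution 2.0 and 0 to 6 without 1 library, Y665H against WT 0 to 3 without 1 library, and Y665F against Y665H 3 without a filter, 1 with DESeq2, 5 at resolution 2.0 and 0 to 6 without 1 library. With doublets kept, 6 spleen genes passed a log2 ratio of 1 in Y665F whole cells and 0 in Y665H pDC-like cells, and WT BM held 5.13% B-lineage-like cells (4.32% at 500 genes) and 1.69% DC-like cells. The cause of these changes was not tested; a fit without 1 library has fewer samples, and a lone sample is then assumed to vary like the other groups. The block changed no other count by over 1.5 times. In LN the replicate numbers are only names, and in BM they go with sex. The marker gate and the removal of barcodes with T-cell receptors changed 0 of 30 LN B-like calls each. Since 0 genes were called in the main fit, this does not show whether the levels moved. In spleen cDC-like cells the marker gate lowered the class II share of UMIs from 3.91%, 3.48% and 3.4% (WT, Y665H, Y665F) to 2.53%, 2.04% and 1.73% and moved 6 of 10 Y665F ratios outside their counting intervals. The planned LN cDC-like test and the comparison of its change with B-like cells were not run, since the class held 2 to 19 cells per library. T-like, GMP-like and DC-free tests were added after seeing the data and were run in the main setting only, so their calls have no alternative. Few UMIs limit the LN dendritic, spleen pDC-like and BM Ciita, H2-DMb2 and Cd83 values.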
